A study of Homo sapiens with 6 samples.

Results

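Cadherins and protocadherins, the calcium-dependent adhesion proteins of the cell surface, were followed in U87 cells, an established human glioblastoma line. Members were the protein-coding genes whose symbol is CDH followed by a digit or begins with PCDH, each represented by its RefSeq accession with the highest abundance. The authors' deposited table holds 19132 protein-coding genes, and the rule found 89 of them: 23 CDH genes, 13 protocadherins outside the gene clusters, and 15 PCDHA, 16 PCDHB and 22 PCDHG genes, which lie side by side on chromosome 5. RNA sequencing compared 3 libraries labelled EGFR+vIII with 3 labelled EGFR+vIII TLR2 KO. Both groups are U87 carrying the epidermal growth factor receptor EGFR and vIII, its constitutively active deletion mutant, and the second group also has a knockout of TLR2, a receptor of innate immunity. This description is that of the labels. The 9 accessions of EGFR had a highest base mean of 1.32 in the authors' deposited table and no adjusted p, so the label was not borne out by EGFR reads. Whether EGFR transcripts were few or their reads were not assigned among the 9 accessions cannot be told apart. How the receptors were introduced, how TLR2 was disrupted, and whether the knockout cells are 1 clone is not given in the sources used here. No label tells whether the 3 libraries come from separate cultures or from 1, and the spread behind the p-values may therefore be technical.

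Classical cadherins join neighbouring cells through their outer domains and hold the actin cytoskeleton through catenins inside the cell. E-cadherin (CDH1) is the cadherin of epithelia, and N-cadherin (CDH2) is that of neural and mesenchymal cells and of many gliomas. Protocadherins bind more weakly, and those of the 3 clusters are known for giving single neurons different surface identities, because each cell switches on only some of the many alternative promoters. In PCDHA and PCDHG every promoter starts a variable exon that is spliced to constant exons shared by the whole cluster, whereas PCDHB genes are single exons that share no constant part. The promoters of the clusters are known to carry a conserved sequence element with the core CGCT, near which the insulator protein CTCF binds.

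All values come from a single comparison that the authors computed. Its base mean is the average over the 6 libraries of reads divided by a library size factor, and its log2 fold change, taken as knockout over EGFR+vIII because the table names its groups in that order, comes with a standard error (SE) and a DESeq2 adjusted p. The base means of the authors' deposited table sum to 11240272 normalized reads, an adjusted p is given from a base mean of 3.11 upwards, and the largest SE is 0.38, so that fold changes of genes with few reads are drawn towards 0. TLR2 is listed at 0 in all of its accessions in the authors' deposited table, so the order of the groups was not checked by the targeted gene. With the groups in reverse order, all directions given here would turn round. Of the markers of the line, vimentin (VIM) was abundant in the authors' deposited table (base mean 126476), as was tenascin C (TNC, 90344), while the astrocyte markers GFAP and S100B are listed at 0. Of 7 tested markers in that list of 9, 4 differed between the groups in the authors' deposited table: CHI3L1 stood at a log2 fold change of 3.01 and nestin (NES) at 1.01, SOX2 at -2.45 and VIM at -0.29. Of all tested genes 25.1% differed at an adjusted p under 0.05. At a base mean of at least 100, 2052 of 4308 accessions did. The part of the marker differences in the cadherin results was not tested. The summed base means of the epithelial, neuronal and leucocyte marker lists were 40.3, 9.45 and 45.1, and that of the endothelial list was 732, led by KDR (556) and PECAM1 (159) in the authors' deposited table.

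Of the 13 members with an adjusted p under 0.05, 11 were PCDHB genes, which also made up 14 of the 23 tested members. Promoter sequences of PCDHB genes around a word frequent in them are shown first. A word count over the promoter windows of RefSeq (build GRCh38.p14, 250 bases before to 50 after a gene's start), available for 14 PCDHB members, found the 8-base words GGTGGCGC and GTGGCGCT in 13 of them, more often than any other word. On either strand GTGGCGCT was present in 404 of 35116 windows of all genes (1.15%), in 0 of 13 PCDHA windows, in 0 of 25 PCDHG windows and in 0 of 38 windows of the other CDH and PCDH members. Because the word comes from the PCDHB windows themselves, its count there is not independent support for a difference between clusters. No like search for words was made in the PCDHA or PCDHG windows. The CGCT core alone, which GTGGCGCT contains, is common: it occurred in 70.0% of all windows, in 12 of 13 PCDHA windows and in all 25 PCDHG windows. Each line below gives 56 bases around the word, 5′ to 3′ on the plus strand, with the word in capitals, so that genes with different responses can be compared.

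The 4 PCDHB genes that were higher in the knockout have these windows.
PCDHB2 (chr5:141094532-141094587): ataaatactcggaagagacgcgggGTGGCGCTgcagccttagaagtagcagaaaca
PCDHB3 (chr5:141100381-141100436): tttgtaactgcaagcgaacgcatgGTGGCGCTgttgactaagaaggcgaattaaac
PCDHB16 (chr5:141182298-141182353): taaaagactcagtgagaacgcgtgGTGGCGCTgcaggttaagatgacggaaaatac
PCDHB15 (chr5:141245302-141245357): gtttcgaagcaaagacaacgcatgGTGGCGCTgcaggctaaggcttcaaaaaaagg

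Of the 7 PCDHB genes that were lower, 6 have a window in the table.
PCDHB7 (chr5:141172554-141172609): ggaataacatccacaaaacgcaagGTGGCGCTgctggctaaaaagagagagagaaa
PCDHB8 (chr5:141177765-141177820): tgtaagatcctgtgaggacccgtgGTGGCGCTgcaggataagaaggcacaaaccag
PCDHB10 (chr5:141192287-141192342): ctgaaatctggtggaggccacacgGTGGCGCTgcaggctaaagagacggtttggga
PCDHB12 (chr5:141208631-141208686): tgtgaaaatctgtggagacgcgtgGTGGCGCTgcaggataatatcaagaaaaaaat
PCDHB13 (chr5:141213853-141213908): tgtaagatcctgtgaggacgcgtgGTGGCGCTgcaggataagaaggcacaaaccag
PCDHB14 (chr5:141223251-141223306): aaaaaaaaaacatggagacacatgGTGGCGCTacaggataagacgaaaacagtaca

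The 3 tested PCDHB genes that were not called have these windows.
PCDHB4 (chr5:141121711-141121766): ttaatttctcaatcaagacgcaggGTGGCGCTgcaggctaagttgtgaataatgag
PCDHB5 (chr5:141135167-141135222): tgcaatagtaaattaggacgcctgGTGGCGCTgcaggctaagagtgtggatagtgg
PCDHB9 (chr5:141187062-141187117): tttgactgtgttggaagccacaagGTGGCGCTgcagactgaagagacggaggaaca

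PCDHB1, which is listed at 0 in the authors' deposited table, has the closest match with 1 substitution, C5T, counted from the first base of the word.
PCDHB1 (chr5:141051325-141051380): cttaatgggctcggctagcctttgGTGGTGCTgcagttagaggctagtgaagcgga

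All 13 windows of tested PCDHB genes hold the word on the plus strand, whichever way the gene went. Relative to the annotated start, the word begins between position -83 (PCDHB4) and position -1 (PCDHB8). The windows of PCDHB8 and PCDHB13, both lower, differ at 1 of 56 bases (C20G, PCDHB8 base first, counted from the window's first base). Those of PCDHB8 and PCDHB16, neighbours that went opposite ways, differ at 15 of 56 bases, and those of PCDHB16 and PCDHB13, also opposite, at 14. Windows of genes that went the same way can differ more: PCDHB8 and PCDHB10, both lower, differ at 28 bases. Whether differences between windows go with direction was not tested. A match describes letters only and is neither a measured binding site nor a cause of a change.

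Of the 89 members, 23 had an adjusted p in the authors' deposited table, and 13 of these changed, 5 higher and 8 lower in the knockout. Over all 9370 tested genes, 25.1% were called, 12.3% higher and 12.7% lower. By subfamily, 11 of 14 tested PCDHB genes (78.6%) were called, against 1 of 5 non-clustered protocadherins and 1 of 4 CDH genes, shares close to that of all genes. Calls were more frequent among abundant genes: at a base mean of at least 100, 2052 of 4308 accessions were called. Of 8 PCDHB genes tested there, 2 were higher and 6 lower. No test was made of the difference between these shares, because the members were chosen with earlier results of these data known. The median absolute log2 fold change of tested PCDHB genes in the authors' deposited table was 0.86, and that of all tested genes was 0.28.

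**Figure D1:**
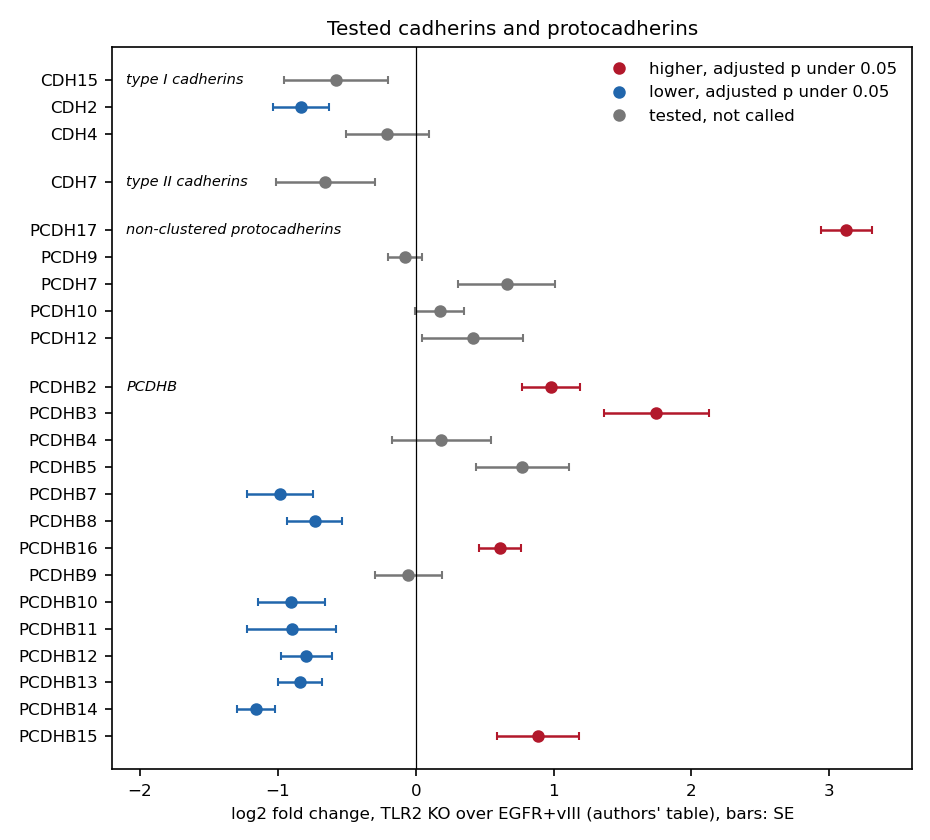
Log2 fold change (knockout over EGFR+vIII, horizontal axis) of the 23 tested members in the authors' deposited table, grouped by subfamily; points are the deposited values and bars 1 SE. PCDH17 stands at 3.12, CDH2 at -0.83, and the PCDHB genes fall on both sides of 0.

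Among classical cadherins, CDH2 (chromosome 18, 27932879 to 28177130), N-cadherin, was lower in the knockout. Its base mean in the authors' deposited table was 142.7 and its log2 fold change -0.83 (adjusted p = 0.000316, SE 0.20), 1.78-fold lower. From these 2 deposited values, the level implied for the libraries was 183 normalized reads in EGFR+vIII and 103 in the knockout. In RNA from whole cultures, fewer cells with a transcript and less of it per cell cannot be told apart. CDH2 has 2 accessions, the other with a base mean of 0.66 in the authors' deposited table, and 16.6% of the 50-base words of the first are missing from the second. Whether the call describes all CDH2 transcripts or only the part that tells the accessions apart was not tested. CDH4, R-cadherin of the nervous system and retina, had a log2 fold change of -0.21 (adjusted p = 0.715, SE 0.30) at a base mean of 53.0 in the authors' deposited table, with a 95% interval of -0.80 to 0.38.

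CDH15, M-cadherin of muscle, and CDH7, a type II cadherin, were not called, but the reads behind their low base means could be read back library by library. A low base mean is a sum of whole reads, each worth a fixed amount in its library, and for members with a base mean below 8 only 1 combination of reads gave the deposited value. CDH15 had 8, 11 and 15 reads in the EGFR+vIII libraries and 3, 3 and 6 in the knockout libraries. CDH7 had 8, 8 and 12 reads in the EGFR+vIII libraries and 1, 1 and 4 in the knockout libraries. For both genes every knockout library lay below every EGFR+vIII library. They were picked out from the 27 members read back. The share of all genes with so few reads whose groups separate was not computed, so the separation is a description. The authors' deposited table gives an adjusted p of 0.308 for CDH15 (log2 fold change -0.58, SE 0.38) and of 0.2 for CDH7 (-0.66, SE 0.36). Fold changes from so few reads are the ones drawn most towards 0. A further accession of CDH7 had 0, 6 and 8 reads in the EGFR+vIII libraries and 0, 1 and 1 in the knockout libraries, and another had 0, 0 and 9 against 0, 0 and 6. In both of these the groups overlapped.

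E-cadherin (CDH1, 4 accessions) and P-cadherin (CDH3, 3 accessions) are listed at 0 in the authors' deposited table. Such a listing is not read as absence. Genes with several accessions were listed at 0 more often, and the cause of this was not tested. Of 24 members with 1 accession, 17 were tested and 2 were at 0 in the authors' deposited table; of 65 members with more, 6 were tested and 40 were at 0. Among members this was also a contrast of subfamilies: 15 of 16 PCDHB genes have 1 accession, against 0 of 15 PCDHA and 0 of 22 PCDHG genes. Among all protein-coding genes the authors' deposited table tested 55.3% of those with 1 accession and 31.0% of those with more. The epithelial markers KRT8 and KRT18 also had low base means, 2.59 and 0.338, in the authors' deposited table, with several accessions each. CLDN7 stood at 0.523 with 3 accessions and ESRP1 at 0 with 5. KRT19 was likewise low, at 1.51, with only 1 accession. EPCAM (22.4) and CLDN1 (12.9), with 1 accession each, were tested and not called. In this marker list KRT8, KRT18, CLDN7 and ESRP1, with several accessions, had no adjusted p, nor did KRT19 with 1. Whether the number of accessions set these low values was not tested.

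**Figure D2:**
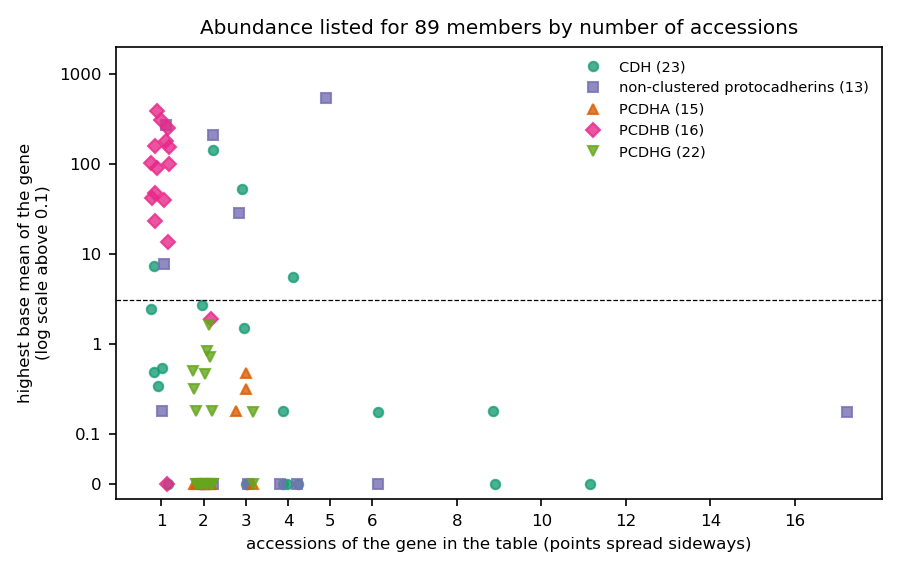
Highest base mean of each of the 89 members (vertical axis, log scale above 0.1) against the number of its accessions in the authors' deposited table; the dashed line is the lowest base mean tested, 3.11. PCDHB genes with 1 accession lie above the line except PCDHB1, and all PCDHA and PCDHG genes, with 2 or 3 accessions, lie below it.

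The other CDH genes gave few reads. CDH24 had 17 reads in all, CDH20 15, CDH11 (OB-cadherin of mesenchyme) 9, CDH5 (VE-cadherin of endothelium) 3, CDH9 3 and CDH22 2. CDH13, the membrane-anchored T-cadherin, CDH23 and CDH26 had 1 read each. The CDH5 reads all lay in 1 knockout library and the CDH9 reads in 1 EGFR+vIII library. CDH11 had 0, 1 and 4 reads in the EGFR+vIII libraries and 0, 0 and 4 in the knockout, and CDH24 had 0, 1 and 6 against 0, 0 and 10, so that both groups overlapped. At this depth no difference in these genes was detectable. CDH6, CDH8, CDH10, CDH12, CDH16, CDH17, CDH18 and CDH19 are listed at 0 in the authors' deposited table.

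**Figure D3:**
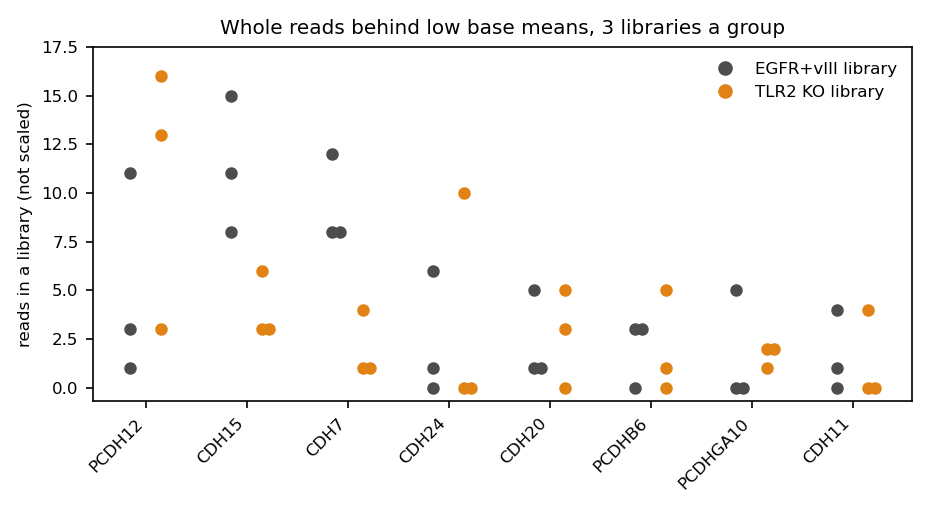
Reads per library (vertical axis, not scaled) recovered from low base means for the 8 members with 9 to 47 reads in all; each point is 1 library, 3 per group. The groups do not overlap for CDH15 and CDH7, neither of which was called, and overlap for the other members shown. How often groups separate among all genes with so few reads was not computed.

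Among non-clustered protocadherins, PCDH17 (chromosome 13, 57630108 to 57729311) rose far more than any other tested member. PCDH17 belongs to the delta-2 protocadherins, which link to the actin-regulating WAVE complex, and is studied in neuronal circuits and as a gene silenced in carcinomas. Its base mean in the authors' deposited table was 272 and its log2 fold change 3.12 (adjusted p = 2.52e-61, SE 0.19), 8.72-fold higher. The implied levels were 56.0 normalized reads in EGFR+vIII and 488 in the knockout. The gene has 1 accession. Of its 50-base words 93.2% occur in no other annotated gene, and the other 6.84% are shared with the annotated gene AL445288.1, so that reads from these words cannot be told apart. The 2 other tested genes within 5 Mb had a median log2 fold change of 0.15 in the authors' deposited table. The call held under every alternative that tested the gene. Those relative to genes within 5 Mb and within 2 Mb did not test it, because it had too few neighbours.

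The other tested non-clustered members were not called. PCDH9, a delta-1 protocadherin of the nervous system, was the member with most normalized reads (base mean 540.8) and stood at a log2 fold change of -0.08 (adjusted p = 0.75, SE 0.12) in the authors' deposited table, with a 95% interval of -0.32 to 0.16. PCDH10, a delta-2 relative of PCDH17, had a base mean of 212 and a log2 fold change of 0.17 (adjusted p = 0.58, SE 0.18) in the authors' deposited table. The interval of PCDH10, -0.18 to 0.52, lies below that of PCDH17, 2.76 to 3.49. PCDH7, a delta-1 protocadherin, stood at 0.66 (adjusted p = 0.188, SE 0.35) and PCDH12, the VE-cadherin-like protocadherin, at 0.41 (adjusted p = 0.502, SE 0.37), both in log2 units of the authors' deposited table. PCDH12 had 1, 3 and 11 reads in the EGFR+vIII libraries and 3, 13 and 16 in the knockout libraries, which overlap. PCDH15 and PCDH20 had 1 read each, and PCDH1, PCDH8, PCDH11X, PCDH11Y, PCDH18 and PCDH19 are listed at 0 in the authors' deposited table.

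The PCDHB genes went both ways. PCDHB2, PCDHB3, PCDHB15 and PCDHB16 rose, PCDHB7, PCDHB8, PCDHB10, PCDHB11, PCDHB12, PCDHB13 and PCDHB14 fell, and PCDHB4, PCDHB5 and PCDHB9 were not called. PCDHB14 (chromosome 5, 141223343 to 141227759), the most abundant PCDHB gene (base mean 387), showed a log2 fold change of -1.16 (adjusted p = 1.14e-15, SE 0.14) in the authors' deposited table. Its implied level was 535 normalized reads in EGFR+vIII and 239 in the knockout, so that it was the leading PCDHB gene of the first group. PCDHB16 (chromosome 5, 141182387 to 141186226), second in base mean (306), went the opposite way in the authors' deposited table, with 0.61 (adjusted p = 0.00065, SE 0.16). Its implied level rose from 242 to 370 normalized reads, above that of PCDHB14 in the knockout.

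PCDHB13 had a log2 fold change of -0.84 (adjusted p = 2.36e-06, SE 0.16) and PCDHB12 one of -0.79 (adjusted p = 0.000183, SE 0.19) in the authors' deposited table. PCDHB7 stood at -0.98 (adjusted p = 0.000411, SE 0.24), PCDHB10 at -0.90 (adjusted p = 0.00134, SE 0.24) and PCDHB8 at -0.73 (adjusted p = 0.00171, SE 0.20) in log2 units of the authors' deposited table. PCDHB11, at -0.90 (adjusted p = 0.0264, SE 0.32), was the least certain of the 7 in the authors' deposited table. These falls were of similar size, 1.66-fold to 2.24-fold.

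The rises were less alike in the authors' deposited table. PCDHB3 rose most, by 1.75 in log2 units of the authors' deposited table (adjusted p = 4.9e-05, SE 0.38), from a low base mean of 13.6. PCDHB2, its neighbour, rose 1.98-fold in the authors' deposited table (log2 fold change 0.98, adjusted p = 3.32e-05, SE 0.21). PCDHB15, the last gene of the cluster, rose by 0.89 (adjusted p = 0.0148, SE 0.30) in the authors' deposited table. PCDHB5 had a like fold change in the authors' deposited table that was not called (0.77, adjusted p = 0.0811, SE 0.34), while PCDHB4 (0.18, adjusted p = 0.802, SE 0.36) and PCDHB9 (-0.05, adjusted p = 0.922, SE 0.24) were nearer 0. PCDHB11 is the called gene nearest the threshold and PCDHB5 the first gene beyond it.

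The direction followed the order of the genes in part. Along the chromosome, the 4 genes PCDHB2 to PCDHB5 had positive log2 fold changes in the authors' deposited table, and the 9 genes from PCDHB7 to PCDHB14 were lower with 2 exceptions, PCDHB16 and PCDHB9. PCDHB15 then had a positive value again. The median log2 fold change of the 49 to 51 tested genes outside the family within 5 Mb was 0.10 to 0.17, computed from the authors' deposited table. Relative to it, PCDHB14 stood at -1.30 and PCDHB2 at 0.81, and all 11 PCDHB calls held. The pseudogene PCDHB17P, between PCDHB6 and PCDHB7 and named after its value was seen, also fell in the authors' deposited table (-1.46, adjusted p = 0.000169, SE 0.34). The pseudogenes PCDHB18P (0.36, adjusted p = 0.589) and PCDHB19P (-0.17, adjusted p = 0.832), between PCDHB14 and PCDHB15, were not called in the authors' deposited table.

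**Figure D4:**
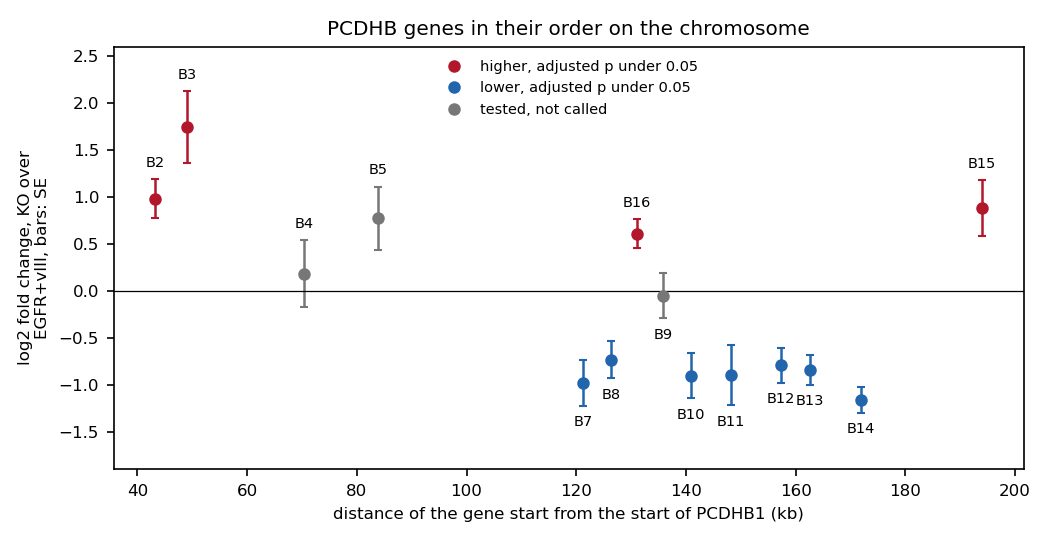
Log2 fold change (knockout over EGFR+vIII, vertical axis, bars 1 SE) of the 14 tested PCDHB genes in the authors' deposited table against the distance of the gene start from that of PCDHB1; labels leave out the letters PCDH. The 7 lower genes lie together from PCDHB7 to PCDHB14, between PCDHB2 to PCDHB5 on one side and PCDHB15 on the other, with PCDHB16 and PCDHB9 among them.

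Opposite changes altered the makeup of the cluster more than its total. Summed over the 14 tested PCDHB genes, the implied level was 2137 normalized reads in EGFR+vIII and 1668 in the knockout, a log2 ratio of -0.36. The 7 lower genes made up 75.0% of that sum in EGFR+vIII and 50.1% in the knockout, and the 4 higher genes 18.2% and 39.8%. The genes were placed in these sets by the same fold changes that give the sums, so the shift in shares is a description. Per kilobase of transcript (lengths from GENCODE 29), the base means ran from 4.06 for PCDHB3 to 80.2 for PCDHB14, with PCDHB16 at 61.2, PCDHB8 at 56.2 and PCDHB12 at 47.0. CDH2, at 32.9, and PCDH17, at 33.0 per kilobase, lay within that range.

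PCDHB coding sequences resemble each other, and the sources used here do not give how reads matching several genes were counted. The share of 50-base words found in no other cadherin gene ranged from 54.2% for PCDHB8 to 90.4% for PCDHB7, and was 100% for the tested members outside the cluster. PCDHB8 shares 33.0% of its words with PCDHB13, and both fell. PCDHB10 shares 23.2% with PCDHB9, which was not called, and PCDHB3 shares 12.6% with PCDHB2, which also rose. PCDHB14, PCDHB16 and PCDHB12 have 89.6%, 88.6% and 86.9% of their words to themselves among cadherins. Counted against all annotated genes, the share ranged from 50.7% for PCDHB8 to 87.8% for PCDHB7, with 66.7% for PCDHB2, 71.4% for PCDHB16 and 87.1% for PCDHB14. PCDHB16 shares 14.7% of its words with the annotated gene AC244517.4. The part of shared reads in the changes was not tested.

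Calls of the PCDHB genes depended on how strict the test was. Against a null of a change of at most 1.5-fold only PCDHB14 and, outside the cluster, PCDH17 remained called (adjusted p = 0.00104 and 3.62e-40), and CDH2 did not. The Wald scores, each fold change divided by its SE, had a central spread of 1.75 over the table where 1 is the spread of a null score. After division by 1.75, PCDHB13 (adjusted p = 0.0372), PCDHB14 (5.41e-05) and PCDH17 (2.12e-19) remained called. The other 9 PCDHB genes did not, among them PCDHB2 (0.0813), PCDHB3 (0.091) and PCDHB16 (0.195), nor did CDH2 (0.158). Against the 1.5-fold null, 1 of 14 tested PCDHB genes was thus called, beside 408 of all 10303 tested accessions. With the scaled scores it was 2 of 14, beside 890 of 10303.

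The remaining clustered genes had too few reads for a test. PCDHB6, which unlike its neighbours has 2 accessions, had 0, 3 and 3 reads in the EGFR+vIII libraries and 0, 1 and 5 in the knockout libraries. Over all 34 accessions of PCDHA, 6 reads were found, those of PCDHA1 (1), PCDHA2 (2) and PCDHA10 (3), and all 6 lay in the knockout. Over all 46 accessions of PCDHG there were 30 reads, 8 in EGFR+vIII and 22 in the knockout, from PCDHGA10 (10), PCDHGA7 (5), PCDHGA2 (4), PCDHGA6 (3), PCDHGB3 (3), PCDHGA12 (2), PCDHGB1 (1), PCDHGB4 (1) and PCDHGC3 (1). Summed over both clusters, the EGFR+vIII libraries had 0, 0 and 8 reads and the knockout libraries 5, 10 and 13, so that the groups overlapped. The other 12 PCDHA and 13 PCDHG genes are listed at 0 in the authors' deposited table: PCDHA3 to PCDHA9, PCDHA11 to PCDHA13, PCDHAC1 and PCDHAC2, and PCDHGA1, PCDHGA3, PCDHGA4, PCDHGA5, PCDHGA8, PCDHGA9, PCDHGA11, PCDHGB2, PCDHGB5, PCDHGB6, PCDHGB7, PCDHGC4 and PCDHGC5. Their accessions overlap in the shared constant exons, and whether these genes were silent or their reads were not assigned cannot be told apart from this table.

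Partners and relatives of cadherins were described by 8 lists with 85 genes, of which 42 were tested and 16 called, 6 of these with a positive and 10 with a negative fold change in the authors' deposited table (38.1%, beside 25.1% of all tested genes). At a base mean of at least 100, 6 were higher and 9 lower of 22 tested partner genes, beside 2052 of 4308 accessions called. Catenins and plakophilins, the inner anchors of cadherins, had 0 of 4 tested members called in the authors' deposited table. CTNNB1, beta-catenin, stood at -0.22 (adjusted p = 0.345, SE 0.15) in log2 units of the authors' deposited table. The proteases that cut cadherins also had 0 of 4 called in the authors' deposited table.

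Of 9 tested atypical and related cadherins, 5 were lower and 1 was higher in the authors' deposited table. FAT1, a giant cadherin of the Hippo and polarity pathways, fell by 0.67 (SE 0.08), and CELSR1, a planar polarity cadherin, fell by 1.40 (SE 0.15) in log2 units of the authors' deposited table. Its relatives parted: CELSR3 had a log2 fold change of -0.67 (SE 0.10) and CELSR2 one of 1.02 (SE 0.15) in the authors' deposited table. CLSTN2, a synaptic calsyntenin, stood at -1.36 (SE 0.36) and DCHS2, a dachsous cadherin, at -0.75 (adjusted p = 0.0453, SE 0.29) in the authors' deposited table. DSG2, a desmosomal cadherin on chromosome 18, had -0.50 (SE 0.08) in the authors' deposited table. Relative to the genes within 5 Mb it stood at -0.17 (adjusted p = 0.111) and was no longer called.

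Of 5 tested nectins and adaptors, 2 rose in the authors' deposited table: the adhesion receptor NECTIN1 by 1.75 (SE 0.24) and afadin (AFDN), which ties nectins to actin, by 1.14 (SE 0.24) on the log2 scale. Of 5 tested repressors of epithelial cadherins, TWIST1 (-0.80, SE 0.15) and SNAI2 (-0.50, SE 0.08) were lower and TWIST2 (0.89, adjusted p = 0.0387, SE 0.34) was higher in the authors' deposited table. TWIST2 was no longer called in 7 of the 9 alternatives that tested it, and TWIST1 was not called relative to genes within 2 Mb. Among 8 tested regulators of clustered promoters, the cohesin subunits RAD21 and STAG1 rose by 0.31 (SE 0.09) and 0.27 (SE 0.07) in log2 units of the authors' deposited table, and SMCHD1, a silencer of the clusters, stood at -0.14 (adjusted p = 0.176, SE 0.08). RAD21 and STAG1 were abundant (base means 22344 and 5316). At a base mean of at least 100, 2052 of 4308 accessions were called. Of 6 tested signalling partners, the kinase FYN (-0.75, SE 0.12) and BRK1, a subunit of the WAVE complex (-0.32, SE 0.09), were lower in the authors' deposited table. Called shares were 40% for nectins and adaptors, 60% for repressors, 25% for promoter regulators and 33.3% for signalling partners. Of all tested genes 25.1% were called. Against the 1.5-fold null, only CELSR1 and NECTIN1 of the 16 remained called. With the scaled Wald scores 9 remained, and AFDN, BRK1, CLSTN2, DCHS2, RAD21, STAG1 and TWIST2 did not. DCHS2 and TWIST2 were also lost at an adjusted p under 0.01 and with no filter on base mean.

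**Figure D5:**
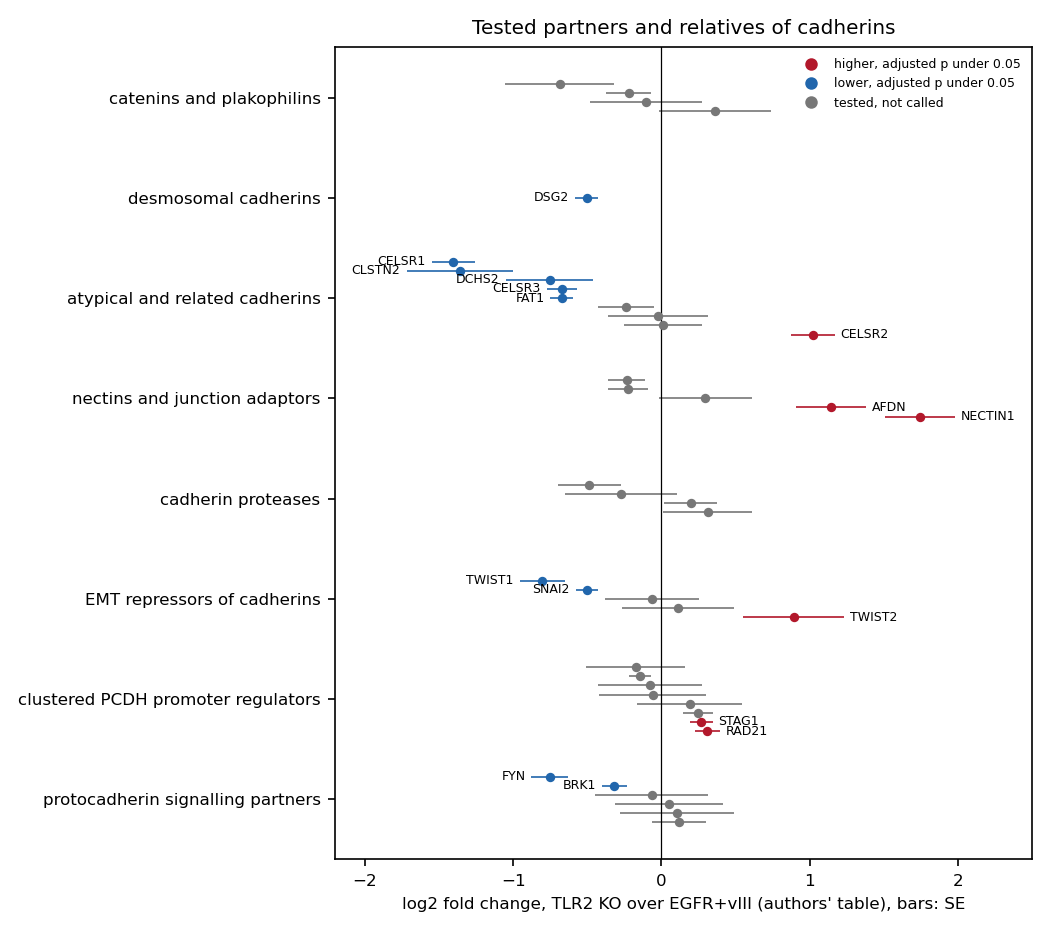
Log2 fold change (knockout over EGFR+vIII, horizontal axis, bars 1 SE) of the 42 tested genes of the 8 partner lists in the authors' deposited table; called genes are named. The catenins and proteases have 0 called genes, and the called atypical cadherins run from -1.40 (CELSR1) to 1.02 (CELSR2).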

How the data were processed

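RNA of 6 libraries of U87 cells, 3 per group by the cell type in the labels, was compared by the authors, who deposited 1 table with a line per RefSeq accession. The authors used STAR, DESeq2 and hg38, per the submitters' processing notes, which give neither version nor setting. For the library kit, strandedness and counter nothing is given in the sources used here. Per the file headers, the authors deposited a base mean (a signal of abundance), a log2 fold change and its SE on the log2 scale, a Wald score, and a p-value with its adjustment. The table holds 67933 accessions, 10303 with an adjusted p, and no value per library, so the deposited adjusted p under 0.05 was the test and leaving out libraries was not possible.

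Accessions were matched to genes with a RefSeq table of GRCh38.p14 (98.8% matched). A gene was represented by its most abundant accession. What 1 read is worth in each library was derived from recurring low base means (size factors 0.928 to 1.07). Whole reads explained each of the 3744 accessions worth under 4 reads, within the last digit printed plus 1e-09, and all 27 members with a base mean between 0 and 8 had 1 solution. These recovered reads were described, not tested. The method was tested on simulated data. In the simulation of read recovery, reads were scaled with the same derived worth of 1 read. That test could therefore not check this worth or the placing of libraries in groups. Implied group levels assume that the base mean is the average of both groups and that their ratio is the deposited fold change. Where few reads draw that fold change towards 0, the implied levels lie closer together than the reads. CDH15 had 12 reads in the knockout and 34 in EGFR+vIII, while its implied levels are 5.97 and 8.92. Intervals are the deposited fold change plus or minus 1.96 SE and share this limit.

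The alternatives were a stricter threshold, a 1.5-fold null, scaled Wald scores, no or a higher base mean filter, adjustment over 1 accession per gene, the accession with the smallest p, and values relative to genes within 5, 2 or 10 Mb. Shared words were counted in GENCODE 29 transcripts on both strands. Python 3.11.15, numpy 2.4.6, pandas 2.3.3 and scipy 1.17.1 were used. The members and lists were chosen with earlier results of these data known. Every member with an adjusted p is named, as are CDH1, CDH3, CDH5, CDH11, CDH13, CTNNB1, TLR2, EGFR, called partner genes and, without an adjusted p, members with reads or several accessions.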

Additional observations from a re-analysis of the deposited data

How the results depend on the processing

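Of 13 member calls, 2 held in every alternative that tested them: PCDHB14 in all 10, and PCDH17 in all except 2 that did not test it. Relative to genes within 5 Mb and within 2 Mb, PCDH17 had too few neighbours. No tested member changed sign in the alternatives that could be computed for it. Against a change of more than 1.5-fold, 1 member was higher and 1 lower, with 0 and 1 in PCDHB, 0 CDH genes lower, 1 and 1 partner genes, and 408 accessions in the whole table instead of 2417. With Wald scores scaled by their central spread, 1 member was higher and 2 lower, with 0 and 2 in PCDHB, 0 CDH genes lower, 2 partner genes higher, and 890 accessions in the whole table. At a base mean of at least 100, 3 members were higher, 2 of them PCDHB, since PCDHB3, PCDHB11 and PCDHB15 were no longer tested. At an adjusted p under 0.01, PCDHB11 and PCDHB15 were lost. Relative to genes within 2 Mb, CDH2 and PCDH17 had too few neighbours, so 0 CDH genes were lower and 0 non-clustered protocadherins higher, and DSG2 turned to 0.0101 (adjusted p = 0.953), after its call was also lost relative to genes within 5 Mb. Relative to genes within 10 Mb, 1 non-clustered protocadherin, PCDH9, was lower (-0.37, adjusted p = 0.0134), and within 5 Mb PCDH10 was higher (0.47, adjusted p = 0.0399). The cause of the losses was not tested. No paired analysis was possible because the table holds no value per library, and leaving out a replicate was not run for the same reason. Of the members without an adjusted p none had more than 17 reads in all, and whether depth, read assignment or low expression set this cannot be told apart.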
